A study of Mus musculus with 6 samples.

Results

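Olfactory receptor peaks are the 505 ATAC-seq peaks that the authors' deposited comparison of mouse embryonic stem cells assigns to a gene whose symbol marks an olfactory receptor (Olfr followed by a digit, or an Or family name, of which there were 0). They made up 0.771% of the 65535 listed peaks and belonged to 374 genes, of which 271 had 1 listed peak and 103 had several, at most 6. The comparison is of 3 libraries of Lmna KO cells with 3 libraries of control cells labelled WT. Lmna encodes lamins A and C, which line the inside of the nuclear envelope. Both groups are E14 embryonic stem cells carrying the Tg(Nkx2-5-EmGFP) reporter, grown with leukemia inhibitory factor on mitomycin-treated mouse embryonic fibroblasts that were reduced by preplating. The labels do not say how Lmna was disrupted, or whether the libraries of a group come from separate clones or cultures, so the deposited p-values may measure technical spread.

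Olfactory receptors are G protein-coupled receptors for odorants, encoded in the mouse by the largest gene family of the genome, in clusters on many chromosomes. An olfactory sensory neuron expresses a single allele of a single receptor gene, while the other receptor genes stay silent in compact heterochromatin. Class I genes lie in a single cluster on chromosome 7 and class II genes in all other clusters. Outside the nose most of these genes are silent, and their clusters are known in many cell types as late-replicating chromatin that contacts the nuclear lamina. In mature olfactory neurons the lamin B receptor is downregulated and receptor clusters gather inside the nucleus.

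The start regions of these genes set them apart in sequence. RefSeq (GRCm38.p6, the assembly of mm10) gave a window of 250 bases before and 50 after the annotated start for 944 olfactory receptor genes. Their median GC content was 35%, against 52.7% over all 27025 genes with a window, and their median number of CG dinucleotides was 1 against 7. A listed peak overlapped 8 of the 944 olfactory receptor windows, or 0.847%, against 33.5% of all windows. Peaks with a p above 0.422 are not listed, so a window without a listed peak may still be accessible. RefSeq starts of these genes can also sit at the coding exon, and such a window need not hold the promoter. Of the 8 overlapped windows 4 are shown, for the range of their folds, 5′ to 3′ on the strand of the gene, with CG dinucleotides and the letters TAATGA in capitals. They are Olfr94 (chr17:37197917-37198216, minus strand), Olfr763 (chr10:129011037-129011336, plus strand), Olfr599 (chr7:103337762-103338061, plus strand) and Olfr297 (chr7:86526509-86526808, plus strand).
Olfr94: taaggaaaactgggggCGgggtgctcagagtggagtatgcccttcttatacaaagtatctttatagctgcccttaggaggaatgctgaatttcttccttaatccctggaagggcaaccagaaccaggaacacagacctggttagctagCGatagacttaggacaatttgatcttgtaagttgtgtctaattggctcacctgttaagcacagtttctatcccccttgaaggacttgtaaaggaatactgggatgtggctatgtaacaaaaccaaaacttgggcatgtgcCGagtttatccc
Olfr763: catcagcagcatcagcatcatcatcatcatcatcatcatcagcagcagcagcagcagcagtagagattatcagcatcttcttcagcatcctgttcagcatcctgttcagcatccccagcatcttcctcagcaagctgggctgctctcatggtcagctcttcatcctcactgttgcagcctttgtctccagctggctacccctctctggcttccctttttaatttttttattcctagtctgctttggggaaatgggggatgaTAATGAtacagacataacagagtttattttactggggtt
Olfr599: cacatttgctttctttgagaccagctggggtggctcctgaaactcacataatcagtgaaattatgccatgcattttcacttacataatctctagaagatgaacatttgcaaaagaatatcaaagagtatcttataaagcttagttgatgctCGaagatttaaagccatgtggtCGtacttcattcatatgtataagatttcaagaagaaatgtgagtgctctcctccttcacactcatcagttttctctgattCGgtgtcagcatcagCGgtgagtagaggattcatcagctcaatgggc
Olfr297: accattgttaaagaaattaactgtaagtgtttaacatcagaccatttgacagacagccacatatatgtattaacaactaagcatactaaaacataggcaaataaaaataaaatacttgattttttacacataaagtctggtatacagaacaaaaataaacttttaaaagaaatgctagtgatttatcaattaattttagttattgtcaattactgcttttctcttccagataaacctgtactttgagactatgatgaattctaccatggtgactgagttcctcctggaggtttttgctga

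The printed windows of Olfr763 and Olfr297 held 0 CG dinucleotides, that of Olfr94 held 3 and that of Olfr599 held 4. Accessibility is given as the authors' log2 concentration of a peak, a normalized read level averaged over a group, and the fold is the Lmna KO minus the control concentration. In the deposited table the Olfr94 peak had a concentration of 6.14 in Lmna KO and 5.85 in control cells (FDR 0.422). The Olfr763 peak had 3.88 in Lmna KO and 2.52 in control cells (log2 fold 1.36, FDR 0.104). The Olfr599 peak had 2.25 in Lmna KO and 3.76 in control cells (log2 fold -1.51, FDR 0.111), and the Olfr297 peak had 1.01 against 2.83 (log2 fold -1.82, FDR 0.166). The start regions thus showed folds in both directions, and none of the 8 overlapped windows had a peak past an FDR of 0.05, where the other 4 (Olfr95, Olfr769, Olfr807 and Olfr644) ran from a log2 fold of -0.61 to 0.78. Of 5 motifs searched on both strands, TAATGA, a core of homeodomain sites, was in 28.7% of olfactory receptor windows and 9.99% of all windows. TAATTA was in 18.6% and 5.31%. The EBF motif (TCCC, 2 bases of any kind, GGGA) was in 0.530% and 0.914%, a part of the CTCF motif (CCCT, 2 bases of any kind, TGG) in 1.91% and 5.80%, and CACGTG in 2.12% and 7.24%. AT-rich windows hold AT-rich letters more often, and a match is not a site.

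Across all olfactory receptor peaks, fewer were gained in Lmna KO cells than among the listed peaks, while the share lost was close to theirs. At an FDR of 0.05 in the authors' deposited table, 33 peaks were gained and 14 were lost. That is 9.31% of the members, against 18.4% of all listed peaks. Gains made up 6.53% of members against 16.1% of listed peaks, or 11.8% outside chromosome 14 beyond 75 Mb, where gains were dense and no olfactory receptor peak lies. Losses made up 2.77% of members against 2.26%. The gained share of changed peaks was 70.2%, against 87.7% over all listed peaks. Outside that part of chromosome 14 the gained share was 82.9%, and 14.2% of listed peaks were changed and 2.43% lost. Gained peaks lay at 33 genes and lost peaks at 13, and 0 genes had both. Among the 374 receptor genes 8.82% gained and 3.48% lost at least 1 peak, where the shares over the 17625 genes in the table were 28.8% and 7.19%. Receptor genes had fewer listed peaks per gene, which lowers a share per gene, and by peak the share lost was not lower. No test of the members as a set was run, and these shares are descriptions.

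The folds of the listed peaks lean above 0, with 69.1% of them positive and a median of 0.49. The median of the olfactory receptor peaks was 0.38 (quartiles -0.98 and 0.90), which is -0.11 relative to that zero. When all peaks were retested around 0.49, with the standard error that each deposited p implies under a normal test, 7 olfactory receptor peaks were gained and 63 lost. Of the members, 1.39% were then gained, against 4.47% of listed peaks, and 12.5% were lost, against 8.93%. Many of those listed gains lay in distal chromosome 14, which holds no member. Outside it, 1236 of 60704 listed peaks were gained after the retest and 5845 lost. All 14 lost peaks and 7 of the 33 gained peaks kept their call. Around 0.43, the median of peaks with a concentration of at least 5 outside distal chromosome 14, there were 8 gained and 50 lost. The balance of gains and losses therefore turned with the zero, as it did over all listed peaks. Both zeros are medians of listed peaks only. About 33500 tested peaks with a p above 0.422 are left out, so the median of all tested folds is unknown and may lie nearer 0. The retest counts hold for these zeros and not for that median.

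Olfactory receptor peaks were weaker than the listed peaks as a whole. Their median concentration was 3.46 in Lmna KO and 3.24 in control cells, against 4.25 in Lmna KO and 3.78 in control cells over all listed peaks. The median width was 578 bases, against 662 bases, but members were wider in 4 of 5 bands of concentration. Between 3 and 4 it was 592 bases against 492, and at 5 and above, the exception, 1158 against 1293. Concentrations below 2 held 6.93% of the members and those between 2 and 3 held 32.9%, against 3.27% and 18.8% of all listed peaks. A concentration of 5 was reached by 58 members (11.5%), against 27.2%.

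Compared within bands of mean concentration, the share of gains was lower at olfactory receptor peaks in every band, and the gap narrowed without distal chromosome 14. Between 2 and 3, 1.81% of 166 members were gained, against 5.60% of listed peaks and 3.59% of those outside distal chromosome 14. Between 3 and 4, 6.47% of 139 members were gained, against 13.5% and 7.77%. Between 4 and 5, 8.41% of 107 were gained, against 19.8% and 13.4%. At 5 and above, 20.7% of 58 were gained, against 24.8% and 21.4%, which is close to the listed peaks. Below 2, 0 of 35 members were gained and 0 lost, where 0.514% of listed peaks were gained and 2.24% lost. The share of losses was highest between 4 and 5, where 6 members made up 5.61%, against 2.22% of listed peaks. The share of positive folds differed from the listed peaks in the strong bands and less in the weak ones. At 5 and above 72.4% of members had a positive deposited fold, against 91.1% of listed peaks, and between 4 and 5 the shares were 67.3% and 78.9%. Between 3 and 4 they were 61.2% and 65.5% (61.2% outside distal chromosome 14), between 2 and 3 they were 40.4% and 38.4%, and below 2 they were 28.6% and 24.1%. These differences were not tested.

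**Figure D1:**
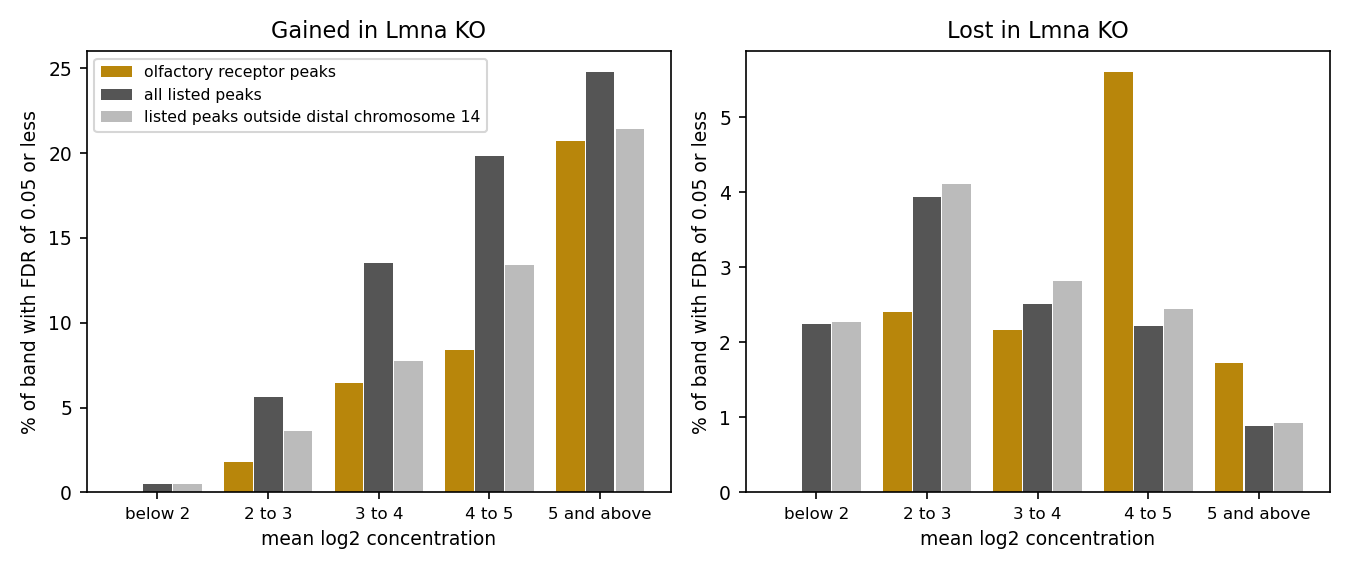
Percent of peaks gained (left) and lost (right) in Lmna KO cells at an FDR of 0.05, by band of mean log2 concentration, for olfactory receptor peaks, all listed peaks and listed peaks outside chromosome 14 beyond 75 Mb. Gains of olfactory receptor peaks climb from 0% below 2 to 20.7% at 5 and above and stay under the listed peaks, and their losses peak at 5.61% between 4 and 5 (6 of 107 peaks).

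The 33 gained peaks had concentrations from 2.95 to 7.33 in Lmna KO and from -0.30 to 6.53 in control cells, with log2 folds from 0.58 to 3.25 (median 1.71). The smallest FDR was at a peak 19.1 kb from the start of Olfr478, at chr7:108012924-108014848. Its deposited concentration was 6.36 in Lmna KO and 4.27 in control cells, a log2 fold of 2.09 ± 0.29 (implied standard error) or 4.26-fold (FDR 2.79e-10). A peak between receptor genes near Olfr382, chr11:73528838-73529724, had 6.17 in Lmna KO and 4.44 in control cells (log2 fold 1.73 ± 0.28, FDR 6.88e-08). The third, chr2:86365605-86368005 near Olfr1057, had 6.47 and 5.09 in Lmna KO and control cells (1.38 ± 0.23, FDR 4.65e-07). All 3 genes encode class II receptors, and all 3 peaks lie between receptor genes rather than at a start.

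These 3 peaks also passed the retest around the median of listed folds, with centred log2 folds of at least 0.89. So did the peaks of Olfr267 (chr4:58714016-58714758), 71.0 kb from the gene and apart from any cluster, and of Olfr821 (chr10:130044681-130045509). Olfr267 had 5.26 in Lmna KO and 3.35 in control cells (deposited log2 fold 1.91 ± 0.41, FDR 0.000150), and Olfr821 had 5.08 against 3.06 (2.01 ± 0.46, FDR 0.000485). The remaining retested gains lay on chromosome 19, at Olfr76 (4.39 in Lmna KO and 2.35 in control cells, FDR 0.00286) and Olfr1505 (3.78 and 1.28, FDR 0.00724). Only these 7 gains passed at that zero.

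The other gained peaks with the smallest FDR did not pass the retest. The strongest of them was chr17:37990353-37991225, near Olfr761 in the cluster beside the major histocompatibility complex, with 7.33 in Lmna KO and 6.53 in control cells (deposited log2 fold 0.80 ± 0.17, FDR 0.000135). Its centred log2 fold was 0.31. Olfr129 in the same cluster had a deposited log2 fold of 0.98 (6.21 in Lmna KO and 5.23 in control cells, FDR 0.00141), and Olfr976 on chromosome 9 had 1.35 (5.63 and 4.28, FDR 0.00125). Olfr1122 (0.88), Olfr339 (0.79) and Olfr1044 (1.81) on chromosome 2 had FDR values from 0.00236 to 0.00389 in the deposited table. Of all 33 gained peaks, 8, that of Olfr1505 among them, had control concentrations below 2. They had 2.95 to 3.97 in Lmna KO and -0.30 to 1.82 in control cells, with log2 folds of 1.97 to 3.25.

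The 14 lost peaks are described as weak and stronger ones, divided at a mean concentration of 4. A mean concentration below 4 was deposited for 7 of them, with -0.45 to 1.87 in Lmna KO and 2.94 to 4.33 in control cells, and log2 folds from -3.40 to -1.91. The other 7 had 3.68 to 4.39 in Lmna KO and 4.96 to 5.62 in control cells, and log2 folds of -1.34 or nearer to 0. The concentrations of the weak and the stronger lost peaks did not overlap in Lmna KO cells or in control cells. The division was made on the mean of these same values, so this is not a separate result. Weak peaks also pass the FDR only with large folds.

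Among the weak ones, the smallest FDR was at chr10:129573499-129573990, 2.84 kb from the start of Olfr794. Its concentration was 1.03 in Lmna KO and 4.33 in control cells, a log2 fold of -3.30 ± 0.74 (FDR 0.000404). The largest fall was 13.4 kb from Olfr1251 (chr2:89681292-89681661), with -0.45 in Lmna KO and 2.94 in control cells (log2 fold -3.40 ± 1.08, FDR 0.0206). Olfr705 held the one changed peak within 1 kb of a start, chr7:106873580-106874057, 186 bases from it and inside the gene. Its deposited concentration was 0.47 in Lmna KO and 3.25 in control cells (log2 fold -2.78 ± 0.91, FDR 0.0246). Olfr401 (1.87 in Lmna KO and 3.78 in control cells, FDR 0.0256) and the class I gene Olfr577 (1.59 and 3.62, FDR 0.0301) also fell. The control concentrations of the 7 weak lost peaks had a median of 3.64, against 3.24 over all members. These peaks were picked for a Lmna KO level below control, so the 2 medians are a description only.

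Among the stronger ones, chr2:88063560-88064895 near Olfr1163 had 4.39 in Lmna KO and 5.62 in control cells (log2 fold -1.23 ± 0.31, FDR 0.00193). Olfr836 on chromosome 9 was the one gene with a pair of changed peaks, about 1 kb apart, and both were lost. The stronger had 4.14 in Lmna KO and 5.41 in control cells (FDR 0.00304), and the weaker had 0.67 and 3.64 (FDR 0.00378) in the deposited table. Olfr519 (3.99 in Lmna KO and 5.33 in control cells), Olfr768 (3.68 and 4.98), Olfr1229 (3.98 and 4.99) and Olfr1290 (4.01 and 5.13) fell by 1.01 to 1.34 on the log2 scale. Receptor genes are close copies of each other, and how reads that match several copies were treated is not given in the sources used here. Its part in these values was not tested.

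**Figure D2:**
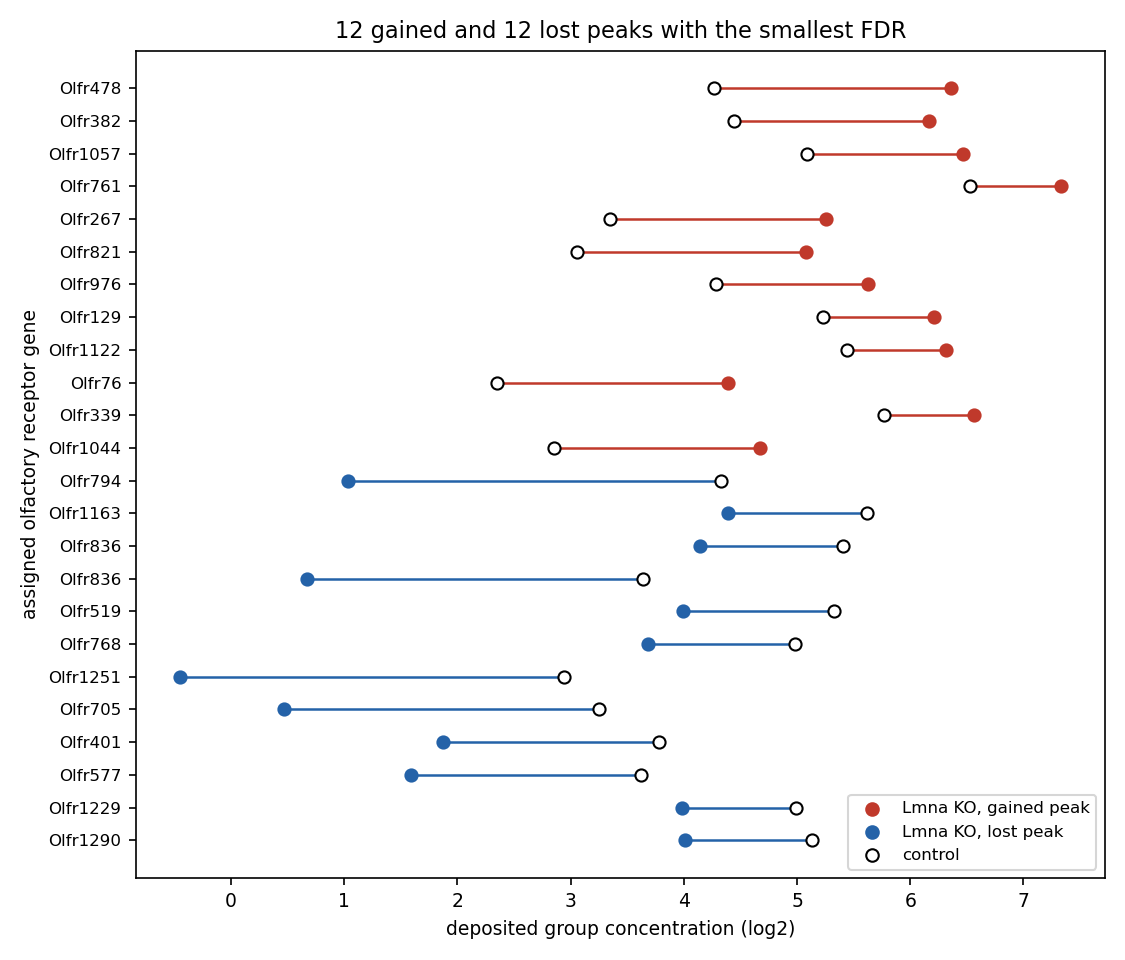
Deposited group concentration (log2) of the 12 gained and 12 lost olfactory receptor peaks with the smallest FDR, filled points for Lmna KO and open points for control, in order of FDR. Gained peaks span 0.79 to 2.09 log2 units. Lost peaks with a mean concentration below 4 have wide spans that end at 1.87 or less in Lmna KO. The other lost peaks have narrower spans that end at 3.68 or more.

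Of the 5 strongest olfactory receptor peaks 1 passed the test. At a concentration of 5 and above 22.4% of members were called, against 25.7% of listed peaks and 22.3% of those outside distal chromosome 14. The highest mean concentration was near Olfr820 (chr10:130003978-130005846), with 7.71 in Lmna KO and 7.42 in control cells (deposited log2 fold 0.29, FDR 0.241). Olfr487 had 7.53 in Lmna KO and 7.36 in control cells (FDR 0.462), Olfr726 had 7.02 and 6.69 (FDR 0.216), and Olfr90 had 7.03 and 6.65 (FDR 0.155). The one that passed was that of Olfr761, and the folds of the other 4 turned negative around 0.49, from -0.33 to -0.11, where they did not pass.

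Listed peaks near the start of a receptor gene had mostly negative folds where they were weak, and positive ones where they were stronger. Of 43 members within 1 kb of the start, 0 were gained and 1 was lost, with a median deposited log2 fold of -0.61. At an unadjusted p under 0.05 there were 4 gained and 10 lost. The matching share over all listed peaks is not given here, so these 2 counts are a description and not a result about the members. Listed peaks within 1 kb as a whole had a median of 0.40 and 12.7% gained (11.7% outside distal chromosome 14). From 1 to 3 kb, 3 of 55 members were gained and 2 lost (median -0.69, against 0.50 for listed peaks). From 3 to 10 kb, 11 of 215 were gained and 5 lost (median 0.35 against 0.53). From 10 to 100 kb, 19 of 180 were gained and 6 lost (median 0.63 against 0.53), and beyond that 0 of 12 changed. Among listed peaks, 14.5% were gained from 1 to 3 kb, 14.3% from 3 to 10 kb and 15.8% from 10 to 100 kb. Beyond 100 kb it was 21.8%, and losses ran from 2.24% to 2.83% in these bands. Outside distal chromosome 14, which holds no member, the gained shares were 13.3%, 12.85%, 12.7% and, beyond 100 kb, 8.40%. Losses there ran from 2.29% to 3.64%, and 12 members are too few to set against such shares. Of the 33 gained peaks 30, and of the 14 lost peaks 11, lay more than 3 kb from the start. So did 407 of all 505 members.

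Strength differed along with distance. Within 1 kb the members' median concentration was 2.84 in Lmna KO and 3.26 in control cells, where listed peaks at that distance had 5.88 and 5.48. Among peaks within 1 kb with a mean concentration below 4, the 36 members had a median fold of -0.83 and the 1815 listed peaks one of -0.44. Positive folds made up 33.3% of these members and 49.4% of these listed peaks. At a mean concentration of at least 4, the 22 members within 3 kb had a median of 0.42, as had the listed peaks there, with 77.3% positive folds against 90.9%, and 2 of the 22 were gained and 0 lost. Beyond 3 kb with a mean concentration below 4, the medians were 0.62 and 0.50. Relative to the median of all listed folds, the members' median was -1.16 within 3 kb and -0.01 beyond it. Weak peaks are listed only when their folds are large, so such medians describe listed peaks and not all peaks. Of 55 peaks centred inside a receptor gene, 0 were gained and 2 (3.64%) lost. Their median fold was -0.66 and their median concentration 2.80 in Lmna KO and 3.06 in control cells. Listed peaks between 2 and 3 in mean concentration outside distal chromosome 14 were 3.59% gained and 4.12% lost, with a median of -0.86. The counts inside receptor genes are thus near those of weak listed peaks. Between receptor genes, 28 of 381 (7.35%) were gained and 11 (2.89%) lost, with a median of 0.43. Listed peaks between 3 and 4 in mean concentration outside distal chromosome 14 were 7.77% gained and 2.81% lost, with a median of 0.57.

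**Figure D3:**
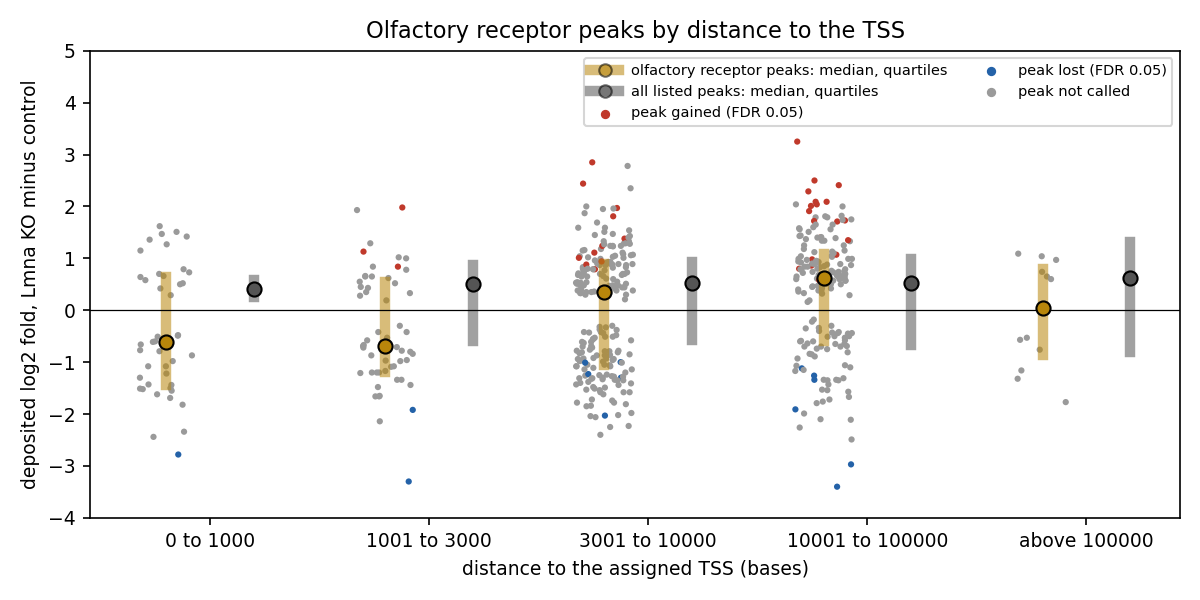
Deposited log2 fold, Lmna KO minus control, by distance to the assigned start. Small points are olfactory receptor peaks, and large points with bars are medians and quartiles of olfactory receptor peaks and of all listed peaks. The members' median is -0.61 and -0.69 in the bands up to 3 kb and 0.63 from 10 to 100 kb; the band around 0 is thin because peaks with a p above 0.422 are not listed.

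By location the 505 peaks formed 38 groups on 15 chromosomes when neighbours up to 1 Mb apart were joined. The 15 clusters with at least 10 peaks held 428 peaks, and 29 of the gained and all 14 lost peaks. The smaller groups held 77 peaks, of which 4 were gained and 0 lost. All 7 clusters with a lost peak also held a gained one. The largest, chr2:85443411-90307789, spans 282 RefSeq olfactory receptor genes and had 93 peaks, 9 gained and 3 lost, with a median log2 fold of -0.38. Its 9 gained peaks lay near Olfr1033, Olfr1044, Olfr1056, Olfr1057, Olfr1122, Olfr1132, Olfr153, Olfr1189 and Olfr1217, and its 3 lost peaks near Olfr1163, Olfr1229 and Olfr1251.

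The chromosome 10 cluster, chr10:128980635-130224376, was dense, with 58 peaks over 69 receptor genes in 1244 kb. One of its peaks (Olfr821) was gained and 3 were lost (Olfr768, Olfr794 and Olfr813), with a median of -0.07. Of its 58 folds 29 were positive, and those nearest to the median were -0.42 (Olfr763) and 0.29 (Olfr820). Peaks with a p above 0.422 are not listed, so few folds lie near 0, and 1 peak can move a cluster median across it. The class II cluster on chromosome 7, chr7:106568050-108910319, had 58 peaks, 2 gained (Olfr478 and Olfr502) and 2 lost (Olfr519 and Olfr705), with a median of -0.31. On chromosome 9, chr9:37761572-40075064 had 34 peaks over 120 receptor genes and 1 gained (median -0.15), and chr9:18733771-20322451 had 19 peaks with 1 gained and 2 lost (median 0.66).

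Among the other clusters some held gains only, some held gains and losses and some held no changed peak. The cluster on chromosome 19, chr19:12005773-14242609, had 3 gained of 15 peaks, at Olfr76, Olfr1425 and Olfr1505, and a median log2 fold of 0.66. The cluster on chromosome 17, chr17:37077850-38125972, also had 3 of 15, at Olfr126, Olfr129 and Olfr761, with a median of 0.38 and the highest median concentration of the 15 clusters, 5.19 in Lmna KO and 4.78 in control cells. On chromosome 1, 2 of 18 peaks were gained (Olfr220 and Olfr419), and on chromosome 11, chr11:73353981-74140573 had 2 gained (Olfr382 and Olfr402) and 1 lost (Olfr401) of 13. The clusters at chr16:58791209-59358081 and chr7:86306214-86706699 had 10 and 11 peaks and none changed, with medians of 0.83 and -0.50. The clusters chr2:36407715-37338949, chr2:111246354-112197288 and chr6:41741212-43217717 had 1 gained peak each (Olfr339, Olfr1314 and Olfr435), of 10, 27 and 10 peaks, and the second also held the lost peak of Olfr1290. Over all listed peaks 16.1% were gained and 2.26% lost, so a cluster without a loss is not a result by itself. Counts per cluster are small, and differences between clusters were not tested.

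**Figure D4:**
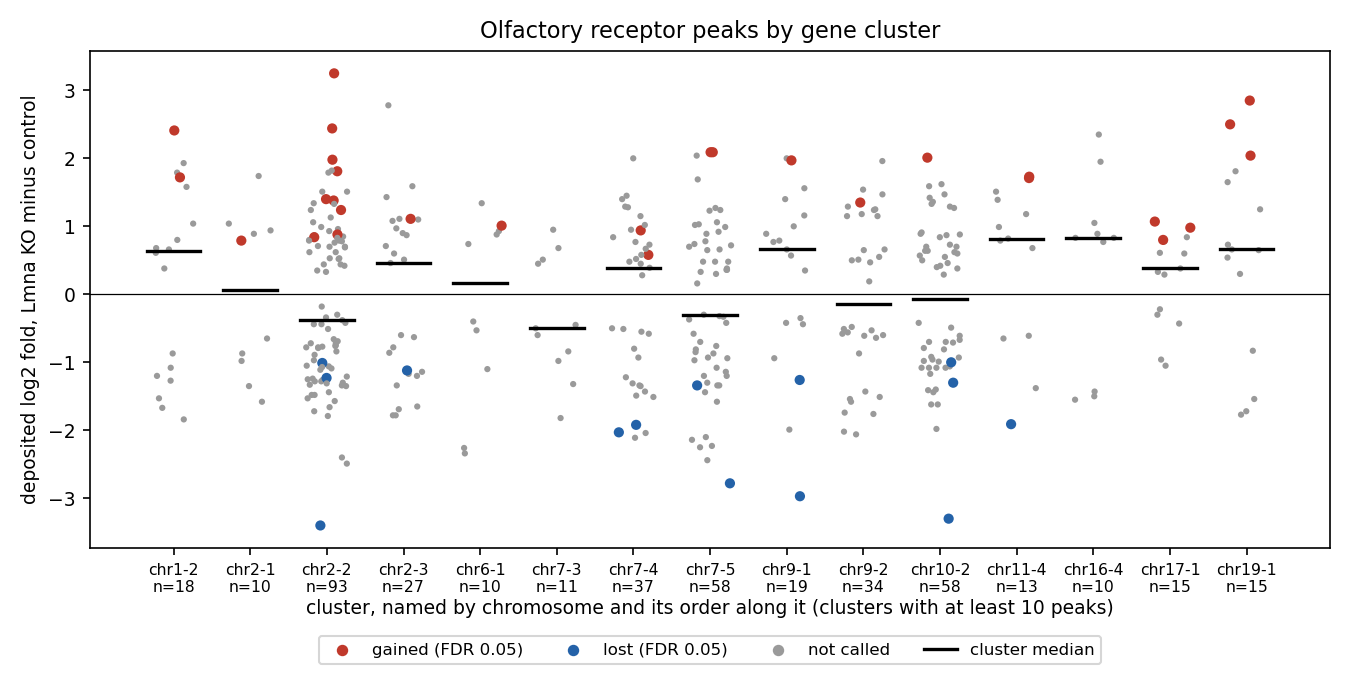
Deposited log2 fold, Lmna KO minus control, of each olfactory receptor peak in the 15 clusters with at least 10 peaks, with the median of each cluster as a bar. Medians run from -0.50 on chromosome 7 (chr7-3) to 0.83 on chromosome 16, and the largest cluster (chr2-2, 93 peaks) has a median of -0.38 with 9 gained and 3 lost peaks. Few listed folds lie near 0, so a median can sit where no peak lies.

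Class I receptor peaks, defined from the MOR family names (1 to 42) that RefSeq gives as synonyms, numbered 36 at 28 genes, with 2 gained and 2 lost. Their median concentration was 3.25 in Lmna KO and 3.64 in control cells, and their median deposited log2 fold was 0.34. Class II peaks (family names from 100) numbered 456 at 338 genes, with 31 gained and 12 lost, median concentrations of 3.48 and 3.18 and a median fold of 0.38. Lost class I peaks were at Olfr577 and Olfr669, and gained ones at Olfr545 (6.63 in Lmna KO and 6.05 in control cells, FDR 0.0491) and Olfr547 (5.31 and 4.38, FDR 0.0428). Both gains are near the lower-coordinate end of the class I cluster, chr7:102512472-105273200, and neither passed the retest. The 13 peaks whose gene had no such name included 0 changed ones. The shares of the classes rest on 4 changed class I peaks.

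Vomeronasal receptor genes, which encode pheromone receptors, also lie in clusters. Of their 234 peaks 5.98% were gained and 2.56% lost, a gained share of 70.0%, and after the retest 0 were gained and 28 lost. Cytochrome P450 and serpin genes, clustered families expressed in liver, had 12.6% gained and 0.485% lost of 206 peaks. Taste and trace amine receptor genes had 6 gained and 0 lost of 35. Differences between these families were not tested.

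Genes of the olfactory pathway are given from lists. Among 16 genes for odour signalling and receptor transport 14 were in the table, and 2 of them gained and 0 lost a peak, where 28.8% of all genes in the table gained one. By peak, 4 of 35 (11.4%) were gained, against 16.1% of listed peaks. Ric8b, a partner of the olfactory G protein, gained peaks with 6.91 in Lmna KO and 5.56 in control cells (FDR 7.37e-08) and with 6.94 and 5.85 (FDR 9.99e-06), and both passed the retest. Gnal, which encodes that G protein, gained 2 peaks at annotated starts, with 5.90 in Lmna KO and 5.10 in control cells (FDR 0.0301) and with 6.57 and 5.82 (FDR 0.0250) in the deposited table, and neither passed the retest. Of 20 genes for receptor choice and the organisation of its chromatin, 19 were in the table. Gains were found at 10 of them and losses at 1, Lmna itself, which had both. By peak, 14 of 93 (15.1%) were gained and 2 (2.15%) lost, close to the 16.1% and 2.26% of all listed peaks, so the genes named next are a description and not a result about the list.

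Among them were transcription factors that bind receptor enhancers in olfactory neurons. Ebf1 gained an intronic peak with 6.51 in Lmna KO and 5.09 in control cells (FDR 2.18e-06), which passed the retest, and another peak (deposited log2 fold 0.62, FDR 0.0494) that did not. Ebf2 (log2 fold 1.75, FDR 0.00970) and Ldb1 (0.66, FDR 0.0184), a cofactor of Lhx2, gained peaks that did not pass the retest. Lbr, the lamin B receptor, gained a peak with 6.29 in Lmna KO and 5.34 in control cells (FDR 0.00556), and Lmnb1 and Lmnb2, the B-type lamins, gained 3 and 1 peaks. Ehmt1, Ehmt2 and Suv39h1, histone H3 lysine 9 methyltransferases, gained 1 each (deposited log2 folds 1.06, 0.99 and 1.01), that of Suv39h1 22482 bases from the assigned start. Apart from Ebf1 and the upstream peak of Lmna, none of these gains passed the retest.

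The labels were checked at Lmna and at marker genes. In the deposited table the Lmna peak chr3:88492472-88493370 had 2.00 in Lmna KO and 6.27 in control cells (FDR 4.44e-20). All 10 embryonic stem cell genes were in the table, where 7 gained and 1 (Nanog) also lost a peak. Of their 68 peaks 35.3% were gained and 1.47% lost, against 16.1% and 2.26% of listed peaks. Most of these gained peaks lay at Esrrb and Tfcp2l1, and Sox2, Klf4 and Tdgf1 had no changed peak. All 16 genes of embryonic fibroblasts, the feeder cells, were in it too, where 2 (Col1a1 and Pdgfrb) gained and 3 (Acta2, Prrx1 and Vim) lost a peak, with a median log2 fold of -0.42 over 44 peaks. That is 4.55% of peaks gained and 6.82% lost, and around the median of listed folds 0 were gained and 8 lost. Of 8 genes of olfactory sensory neurons, 6 were in the table, without Cnga2 and Stoml3, and 2 (Gnal and Ncam1) gained and 1 (Gap43) lost a peak, or 13.3% and 3.33% of 30 peaks. The part of feeder cells in the olfactory receptor peaks was not tested.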

How the data were processed

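ATAC-seq, which reads DNA that a Tn5 transposase could reach, was compared between Lmna KO and control embryonic stem cells (3 each). Per the submitters' processing notes, the build was mm10, and the tools included ChIPseeker, DiffBind with DESeq2, MACS2, Bowtie2, Trimmomatic 0.39, deepTools, Picard 1.119, SAMtools and bedtools 2.28.0. Their settings, the Tn5 shift, the treatment of reads with several matches and the normalization were not given in the sources used here. The deposited table gives log2 concentrations, log2 folds, p-values and FDR as the authors computed them, with the gene and the distance to its start. Each fold equalled the Lmna KO minus the control concentration within 0.01. Values per library were not used here, so replicate spread and depth are unknown, and the test of each peak is the deposited FDR. Fits of read counts, with a replicate block or without a library, were planned only for values per library and were not run.

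The ranks and FDR imply about 99100 tested peaks, of which about 33500, all with a p above 0.422, are not analysed here. Counts and medians are over listed peaks. Implied standard errors divide the fold by the normal quantile of the deposited p and are approximate. The retest subtracts a zero from every fold and adjusts by Benjamini-Hochberg over all tested peaks, giving unlisted peaks a p of 1. Its code was checked on artificial data in which all peaks were listed, so the check does not cover the listing limit. The members and lists were chosen with earlier results of these data known. Named were all clusters with at least 10 peaks, the 12 gained and 12 lost peaks with the smallest FDR, the 5 strongest peaks, changed peaks within 1 kb of a start and changed pathway genes; other genes were named after their values were seen. Classes came from MOR names in place of the planned Or names, and motifs were searched in RefSeq start windows because no genome was used. RefSeq matched all 374 genes by ID, and 310 of them had a window. The work used matplotlib 3.10.9, SciPy 1.17.1, numpy 2.4.6 and pandas 2.3.3 under Python 3.11.15.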

Additional observations from a re-analysis of the deposited data

How the results depend on the processing

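No paired analysis was possible because only group means were used here, and leaving out each replicate and the fits of read counts were not run for the same reason. Olfactory receptor peaks numbered 14 gained and 5 lost under an FDR of 0.01, and 21 and 7 when only those reaching the median listed concentration were kept. Retesting around the median of listed folds gave 7 and 63, and around the median of strong peaks outside distal chromosome 14 gave 8 and 50. Within 3 kb of the start there were 3 and 3, and with 1 peak per gene 23 and 8. Asking for a log2 fold of 1 or more in size (25 and 14) or a distance within 100 kb (33 and 14), the counts stayed within 1.5 times. Joining neighbours up to 500000 or 2000000 bases apart gave 42 and 35 groups, 14 and 15 of them with at least 10 peaks. The folds of Olfr820 (-0.20 and -0.14), Olfr487 (-0.33 and -0.27), Olfr726 (-0.16 and -0.10) and Olfr90 (-0.11 and -0.05), none of which passed, turned negative around the zeros 0.49 and 0.43. Of the other 24 named peaks, 18 kept their call and 6 lost it around each zero. By construction these alternatives differ from the reported counts in the zero, the threshold or the number of peaks kept. Of the 14 lost peaks, 7 rest on mean concentrations below 4, and their read counts are unknown.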

Other observations

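Inside the spans of the olfactory receptor clusters lay 175 listed peaks that the deposited table assigns to other genes. Of these, 15 were gained and 7 lost in Lmna KO cells (8.57% gained, against 16.1% of all listed peaks, and 12.6% changed in all, against 18.4%). Outside distal chromosome 14 the listed shares were 11.8% gained and 14.2% changed. Within the large cluster on chromosome 2, a peak near Pramel6 and one near Pramel7, members of the PRAME-like family, were gained. Pramel6 had a deposited concentration of 6.73 in Lmna KO and 5.17 in control cells (FDR 2.10e-09), and Pramel7 had 6.96 and 6.03 (FDR 0.000244). Of the pair, the Pramel6 peak passed the retest around the median of listed folds. In the class II span on chromosome 7, 9 of 27 such peaks were gained and 1 was lost. All of these changed peaks lay between the receptor peaks of Olfr716 and Olfr467, in a stretch with no listed receptor peak. Joining neighbours up to 1 Mb apart bridges that stretch, so the changed peaks are not interspersed with receptor peaks. Of these gains 4 lay at Ppfibp2, of which the strongest by FDR had 5.50 in Lmna KO and 3.48 in control cells (FDR 4.41e-06). In the chromosome 19 span, where 3 receptor peaks were gained and 0 lost, 2 of 12 other peaks were lost and 0 gained. They lay in introns at Dtx4, with 1.86 in Lmna KO and 4.06 in control cells (FDR 0.0147), and at Mpeg1, with 2.89 and 4.35 (FDR 0.0264). These peaks were named after their values were seen, and no test of their difference from the receptor peaks was run, and counts within 1 span are small. Of all listed peaks 2.26% were lost.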
